A study of Mus musculus with 335 samples.

Results

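The 3 genes described here, Slpi, Wfdc2 and Wfdc12, encode small secreted proteins of the whey acidic protein (WAP) family. They were picked by symbol from the deposited expression table, which holds 20188 genes, after earlier results had shown how unevenly they were expressed across these tumours. Levels and differences of the 3 genes are therefore given as a description, with no test. RNA was sequenced from 335 libraries of mouse mammary tumours, metastases, healthy or tumour-adjacent organs and cultured lines, in 61 groups. The design text calls primary tumours and metastases paired and asks which expression differences models share. Libraries of the same animal and tissue were averaged, which left 281 profiles, each from 1 animal and tissue or from 1 cultured library.

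All samples were labelled untreated. Allografts were made by injecting a cultured line into the mammary gland (orthotopic), the tail vein or the heart (intracardiac). Lines injected into BALB mice were 4T1, 4T07, 67NR, D2A1, EMT6, F311 and TSAE1, with the oncogenic driver entered as unknown. FVB hosts received 6DT1 (driver cMyc), Mvt1 (cMYC / VEGF), Met1 (PyMT), HRM1 (Pik3ca) and, by the intracardiac route, M6 (SV40T). Orthotopic M6 hosts carried the strain entry REAR. E0771 grew in BL6 and R3T in 129S1J hosts, both with an unknown driver. Tumours of genetically engineered mice carried PyMT on FVB, BL6, BL10, CAST or MOLF backgrounds, or Myc, Neu or C3Tag (driver SV40T) in FVB. Library names of a single Neu animal, for its tumour and its lung metastases, carry PyMT-Neu. Whether that animal also held the PyMT transgene was not tested. The C3Tag strain entries are not uniform, and neither is the entry of a 6DT1 culture. Healthy lung and liver were taken as wild-type FVB, although the library names of the healthy livers carry FVBxPyMT_F1. Each allograft model is a single established line, so animals of a group are hosts of the same cells. Sample titles name the MMTV promoter, from mouse mammary tumour virus and active in mammary epithelium, for the PyMT, Myc and Neu transgenes, and name no promoter for C3Tag. Ages of the animals are not given in the labels used here.

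WAP-domain proteins share a compact fold held together by disulfide bonds, and several of them inhibit serine proteases. Slpi, the secretory leukocyte peptidase inhibitor, blocks neutrophil elastase and cathepsin G at mucosal surfaces and is known for dampening inflammatory signalling. Wfdc2, also called HE4, is a secreted protein of airway and reproductive epithelium and a serum marker of ovarian cancer. Wfdc12 is a smaller family member known from skin epithelium. Mammary epithelium makes the founding member, Wap, as a milk protein.

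The 3 genes sit in a single cluster of WAP genes, so the 250 bases before each RefSeq start are shown first (GRCm38.p6, chromosome 2). They are Wfdc12 at chr2:164190559-164190808 on the minus strand, Slpi at chr2:164356508-164356757 on the minus strand and Wfdc2 at chr2:164562465-164562714 on the plus strand. Each is written 5′ to 3′, with capitals for a match to any of 4 motifs searched on both strands.
Wfdc12: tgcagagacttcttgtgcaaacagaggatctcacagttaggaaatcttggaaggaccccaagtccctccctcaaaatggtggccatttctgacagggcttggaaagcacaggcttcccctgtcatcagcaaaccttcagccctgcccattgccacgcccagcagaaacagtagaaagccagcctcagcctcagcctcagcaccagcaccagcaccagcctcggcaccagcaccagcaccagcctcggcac
Slpi: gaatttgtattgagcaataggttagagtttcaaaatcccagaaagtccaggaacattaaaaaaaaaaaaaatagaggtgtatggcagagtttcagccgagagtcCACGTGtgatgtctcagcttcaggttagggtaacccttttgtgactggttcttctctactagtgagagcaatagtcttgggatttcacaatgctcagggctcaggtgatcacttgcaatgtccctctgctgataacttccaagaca
Wfdc2: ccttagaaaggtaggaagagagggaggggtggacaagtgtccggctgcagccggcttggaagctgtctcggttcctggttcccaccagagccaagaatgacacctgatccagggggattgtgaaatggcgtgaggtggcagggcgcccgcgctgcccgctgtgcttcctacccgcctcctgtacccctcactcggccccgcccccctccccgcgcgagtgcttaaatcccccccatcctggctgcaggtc
The motifs were CACGTG (the E-box bound by MYC and MAX), TGANTCA (AP-1), TATAAA (the TATA box) and an NF-kB-like motif of 3 guanines, 1 adenine, any 4 bases and 2 cytosines. Only the E-box matched, and only in Slpi, so no matches overlap; its first base lies 146 bases before the start. Among 32851 RefSeq promoter windows of the same kind, 6.02% held the E-box, 6.75% the AP-1 motif, 12.4% the TATA motif and 17.6% the NF-kB-like motif. GC content differed among the 3 windows: 42% in Slpi, 57.2% in Wfdc12 and 64.8% in Wfdc2, against a median of 52.4% over all windows. These matches describe letters only, and the windows come from another build than the mm9 build named in the submitters' processing notes.

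The deposited values are RPKM (reads counted for each kilobase of transcript, divided by library size), so levels of different genes can be set side by side. Total counted reads, recovered from the step size of low values, ran from 8106344 to 54906212 per library with a median of 27175852. Slpi collected 1085931 reads over all libraries and was at 0 in none. Wfdc2 collected 1522770 reads and was at 0 in 6 libraries, while Wfdc12 collected 25548 reads and was at 0 in 70. Of the 281 profiles, 272 had Slpi, 257 had Wfdc2 and 96 had Wfdc12 at 1 RPKM or more. At 100 RPKM or more the counts were 63 for Slpi, 130 for Wfdc2 and 0 for Wfdc12. Wfdc12 levels below 1 RPKM rest on few reads (11 at 0.417 RPKM in a cultured 4T07 library), and small differences among them cannot be told from counting error.

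Marker genes of 9 profiles stand apart from their labels or groups, and levels, differences and likeness of the 3 genes that include them are given without them where that moves a value by over 1.5 times or turns a sign. The lung metastasis of PyMT FVB mouse9716 had a summed alveolar type 2 level of 78904 RPKM over 8 markers, above the healthy lungs (10700 to 16643 RPKM). The Met1 tail vein lung metastasis, a group of 1 animal, reached 94602 RPKM on the same sum. In the tumour of Met1 animal 1 the 12 luminal epithelial markers summed to 241 RPKM, against 1047 to 1776 RPKM in the other tumours of that model. The M6 intracardiac lung metastasis had 2.72 RPKM of alveolar markers and 6436 RPKM of 6 hepatocyte markers. Both brain metastases were low in luminal markers (7.09 and 30.5 RPKM), as was the spleen metastasis of Met1 animal 6 (4.11 RPKM). In PyMT BL6, a primary tumour had an alveolar sum of 691 RPKM and a lung metastasis had 7.82 RPKM, and neither belonged to a pair.

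Among primary tumours, 4T07 had the highest mean Slpi level. The 6 4T07 tumours held 362, 508, 754, 807, 994 and 1132 RPKM (mean 759 ± 289, SD, n = 6). No tumour of any other group in the plot of primary tumour levels reached the 4T07 mean, and the animal nearest to it was PyMT FVB mouse978 at 651 RPKM. That tumour and a PyMT MOLF tumour at 404 RPKM lay inside the 4T07 range. The next group means were C3Tag at 145 ± 58.7 RPKM (SD, n = 3), Myc at 144 ± 91.3 (SD, n = 6), 4T1 at 108 ± 22.9 (SD, n = 6) and PyMT MOLF at 105 ± 128 (SD, n = 8). At the other end D2A1 tumours held 1.07, 1.41, 1.49 and 1.99 RPKM. Of the 22 primary tumour groups, 5 had a mean of 100 RPKM or more and 18 of 10 RPKM or more. In the order of means, 19 of the 21 neighbouring groups overlapped in their animals. The exceptions were 4T07 above C3Tag and D2A1 below E0771, whose animals held 4.45 to 8.01 RPKM. Library names of all D2A1, E0771, EMT6, F311, HRM1, R3T and TSAE1 tumours carry the code sample1010, and those of no other allograft tumour do. Line and library code therefore cannot be told apart where these lines are set against other models, for any of the genes described. The Met1 mean was 27.7 RPKM (n = 7) and 5.94 ± 3.97 RPKM (SD, n = 6) without animal 1, which moved Met1 from place 15 to place 20 of the 22 groups.

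4T07, 4T1 and 67NR are sister lines derived from the same mouse mammary tumour and differing in how far they spread, and their Slpi levels lay far apart. 67NR tumours held 0.647, 2.31, 2.47, 3.89, 15.9 and 20.1 RPKM, a mean of 7.57 ± 8.29 (SD, n = 6). 4T1 tumours held 84.4, 85.4, 97.1, 114, 133 and 136 RPKM. No 2 of these 3 groups overlapped, and the 4T07 mean was 7.01 times the 4T1 mean and 100.4 times the 67NR mean. The luminal epithelial sum did not follow the same order. It was 191 to 323 RPKM in 4T07 tumours, 598 to 1603 RPKM in 4T1 tumours and 0.710 to 8.60 RPKM in 67NR tumours, and its part in the levels was not tested. In bulk tissue, fewer cells of a type and less RNA per cell cannot be told apart.

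Within the transgenic tumours, single animals carried much of the Slpi signal. The 14 PyMT FVB tumours ran from 10.6 to 651 RPKM with a median of 21.8 RPKM, and the highest animal, mouse978, also had the highest Wfdc2 of the group at 106 RPKM. PyMT MOLF tumours held 24.8, 26.3, 28.0, 31.5, 104, 106, 118 and 404 RPKM, a gap between the lower and the upper animals of that group. Myc tumours ran from 56.0 to 320.0 RPKM with a median of 128 RPKM. Neu tumours held 12.3 and 18.3 RPKM. All 8 transgenic group means lay between 15.3 and 145 RPKM, with a median of 77.4 RPKM, while the 14 allograft means ran from 1.49 to 759 RPKM with a median of 30.7 RPKM.

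**Figure D1:**
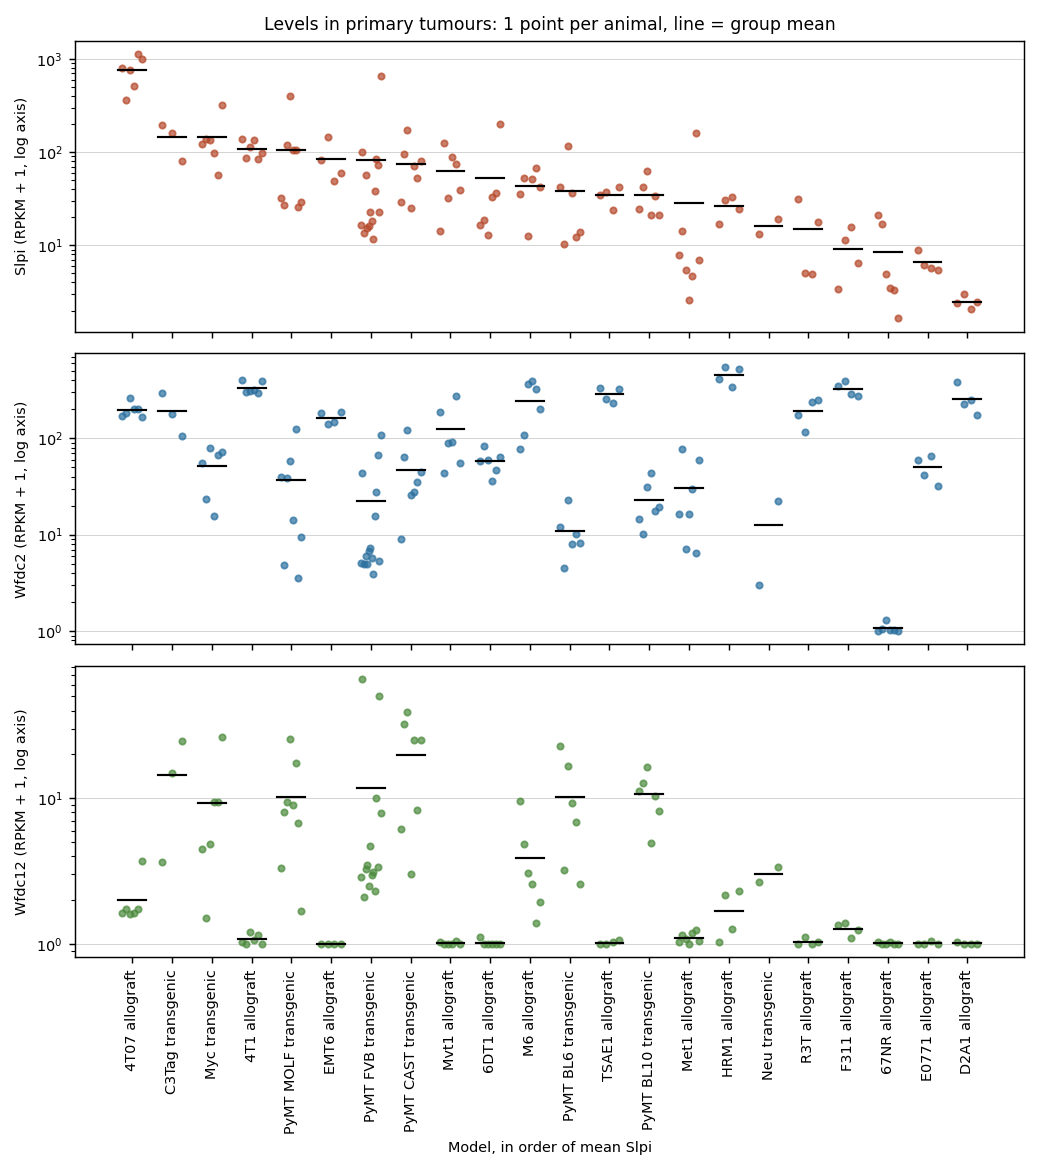
Slpi, Wfdc2 and Wfdc12 in every primary tumour animal of the 22 models (RPKM + 1 on a log axis), with models in order of mean Slpi and a line at each group mean. The 4T07 mean is the highest for Slpi, with a PyMT FVB and a PyMT MOLF animal inside its range, 67NR lies near 0 for Wfdc2, and Wfdc12 is higher in the transgenic models.

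Wfdc2 followed another order. HRM1 tumours were highest at 342, 410.1, 526.2 and 551 RPKM (mean 457 ± 98.6, SD, n = 4). 4T1 followed at 334 ± 45.8 RPKM (SD, n = 6) and F311 at 326 ± 56.4 RPKM (SD, n = 4). D2A1, lowest for Slpi, had 174, 226, 247 and 379 RPKM of Wfdc2, and F311 held 8.19 ± 5.38 RPKM of Slpi (SD, n = 4). HRM1, F311 and D2A1 share the library code sample1010, so line and code cannot be told apart in these places of the order. 67NR tumours had 0, 0, 0.0274, 0.0299, 0.0540 and 0.297 RPKM of Wfdc2, which is 11 reads in the highest animal and at most 2 in any other. Outside 67NR, the lowest primary tumour in any allograft group was a Met1 tumour at 5.51 RPKM. Of the 21 neighbouring pairs of groups, 20 overlapped, and only 67NR stood apart from its neighbour PyMT BL6 (3.55 to 21.9 RPKM).

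Allograft and transgenic tumours differed in where Wfdc2 was high. Allograft group means ran from 0.0681 to 457 RPKM with a median of 195 RPKM over 14 groups. The 8 transgenic means ran from 9.98 to 193 RPKM with a median of 28.7 RPKM, and C3Tag was the highest of them (105, 178 and 295 RPKM). PyMT FVB tumours held 2.90 to 106 RPKM with a median of 5.42 RPKM. The Met1 line, which carries the same PyMT driver in the same strain, gave tumours of 5.51, 6.06, 15.4, 15.5, 29.1, 58.8 and 76.3 RPKM, which overlapped the transgenic tumours. Met1 tumours removed by resection had more, 48.1, 95.7, 110.0 and 124 RPKM, overlapping the primary tumours at the upper end. They came from Met1 animals 1, 3, 10 and 13, whose primary tumours are in the list above at 5.51, 58.8, 15.5 and 29.1 RPKM. The groups are therefore not independent, and the primary tumour of animal 1 is among the profiles that stand apart.

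Among primary tumours, Wfdc12 was largely a transcript of the transgenic models. Of 52 transgenic primary tumours, 50 had 1 RPKM or more, against 7 of 71 allograft tumours. The 8 transgenic group means ran from 2.00 RPKM in Neu to 18.9 RPKM in PyMT CAST, and only 2 of 14 allograft means reached 1 RPKM, M6 at 2.90 ± 3.02 (SD, n = 6) and 4T07 at 1.00 ± 0.831 (SD, n = 6). PyMT CAST tumours held 2.01, 5.15, 7.34, 23.9, 24.0, 31.3 and 38.3 RPKM. The highest single tumours were both PyMT FVB, mouse9336 at 64.4 RPKM and mouse977CH at 49.2 RPKM, in a group whose median was 2.31 RPKM. M6 tumours, from a line with the same SV40T driver as C3Tag, held 0.396 to 8.57 RPKM, and C3Tag tumours 2.67, 14.0 and 23.7 RPKM. None of the 4 EMT6 tumours had a read of Wfdc12.

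The 3 genes also differed among tumour-free organs. Healthy lung held 44.5, 82.6, 89.7 and 115 RPKM of Slpi, while healthy liver held 0.621, 0.838, 0.924 and 1.14 RPKM, a ratio of means of 94.1. Wfdc2 was 399.7, 421, 471 and 589 RPKM in healthy lung and 0.326 to 1.10 RPKM in healthy liver, a ratio of 575. Wfdc12 was 0.794 ± 0.301 RPKM in healthy lung (SD, n = 4) and was at 0 in 3 of 4 livers. Lung next to PyMT FVB metastases held 295 to 746 RPKM of Wfdc2 and 22.6 to 119 RPKM of Slpi. Adjacent spleen had no Wfdc2 read in either animal but 24.1 and 30.3 RPKM of Slpi. Healthy lung thus carried more Wfdc2 than most tumours, with a mean 22.2 times the PyMT FVB tumour mean.

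**Figure D2:**
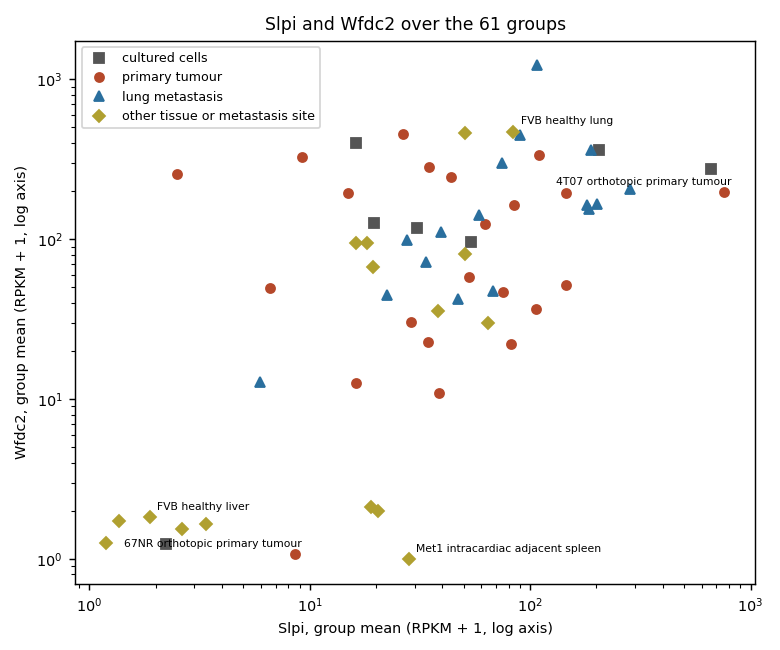
Group means of Slpi and Wfdc2 (RPKM + 1, both axes log) over the 61 groups, with marker shapes for tissue. 4T07 lies at the right with high values of both genes, 67NR at the lower left, D2A1 high in Wfdc2 but low in Slpi, and liver and spleen tissue low in Wfdc2.

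Lung metastases and tumours of the same animal could be compared in 10 models with 68 pairs. Differences are metastasis minus tumour on the log2(RPKM + 1) scale, averaged over animals within a model. Slpi differed by 0.68 ± 1.12 over the 10 models (SD, n = 10), with 6 models higher and 4 lower, and 42 of 68 animals higher in the metastasis. The models split by kind. In the 5 allograft models the mean was 1.59 ± 0.78 (SD, n = 5), with all 5 higher and 26 of 30 animals higher. In the 5 PyMT transgenic models it was -0.24 ± 0.32 (SD, n = 5), with 1 model higher and 16 of 38 animals higher. The difference between the 2 kinds was not tested.

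6DT1 showed the largest Slpi difference, 2.44 ± 1.11 (SD, n = 6), and all 6 animals were higher in the metastasis. Its tumours held 11.9, 15.5, 17.5, 32.4, 35.3 and 199 RPKM, and its metastases 109, 119.6, 120.4, 188, 236 and 327 RPKM. Only the tumour at 199 RPKM reached into the range of the metastases. Met1 gave 2.25 ± 2.87 (SD, n = 6) with 5 of 6 animals higher. Animal 1, whose tumour was low in luminal markers, held 158 RPKM in the tumour and 20.6 RPKM in the metastasis, and without it the mean difference was 3.27. Mvt1 gave 1.68 ± 1.70 (SD, n = 6), with tumours of 13.4 to 124 RPKM and metastases of 56.5 to 439 RPKM. The differences in M6, 0.90 ± 1.00 (SD, n = 6), and 4T1, 0.70 ± 0.79 (SD, n = 6), were smaller, with 5 of 6 animals higher in each. In 4T1 a single metastasis at 367 RPKM lay far above the other 5 (110.2 to 186 RPKM).

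Slpi differences in the PyMT strains were smaller than the spread between animals as deposited. The mean difference was 0.07 ± 1.41 in FVB (SD, n = 12), -0.04 ± 1.62 in BL6 (SD, n = 5) and -0.06 ± 1.28 in MOLF (SD, n = 8). It was -0.54 ± 0.71 in BL10 (SD, n = 6), where 5 of 6 animals were lower, and -0.63 ± 1.10 in CAST (SD, n = 7), where 6 of 7 were lower. The highest MOLF tumour, at 404 RPKM, was paired with 99.0 RPKM and the highest CAST tumour, at 172 RPKM, with 49.6 RPKM. The signs in FVB, BL6 and MOLF changed when single animals were left out: without mouse9716, for example, the FVB difference was -0.15.

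**Figure D3:**
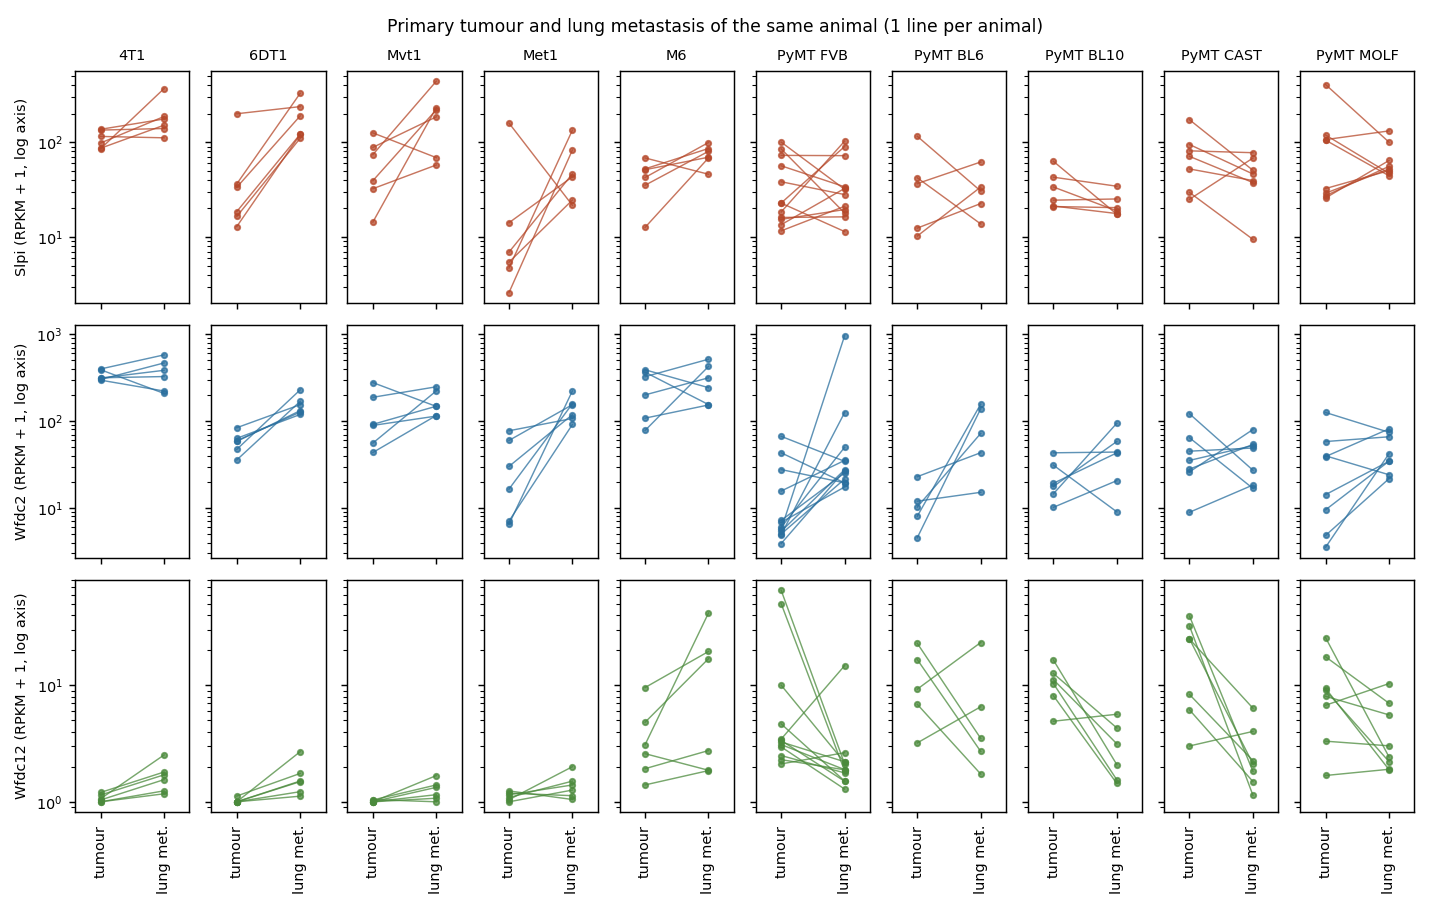
Primary tumour and lung metastasis of the same animal for the 3 genes (rows) in the 10 models (columns), RPKM + 1 on a log axis, 1 line per animal. Slpi lines climb in 6DT1, Mvt1 and most Met1 animals, Wfdc2 lines climb in PyMT BL6 and Met1, and Wfdc12 lines descend in most PyMT animals.

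Wfdc2 was higher in the metastases of all 10 models as deposited, by 1.17 ± 0.99 (SD, n = 10), and in 55 of 68 animals. The mean was 1.03 in the 5 allograft models and 1.32 in the 5 PyMT models. PyMT BL6 had the largest difference, 2.66 ± 2.01 (SD, n = 5), with tumours of 3.55 to 21.9 RPKM and paired metastases of 14.1 to 156 RPKM. Met1 gave 2.64 ± 1.69 (SD, n = 6), or 2.15 without animal 1, and 6DT1 1.43 ± 0.65 (SD, n = 6), and in both the paired tumours and metastases did not overlap. Met1 tumours in pairs ran from 5.51 to 76.3 RPKM and metastases from 90.3 to 221 RPKM. 6DT1 tumours held 34.7 to 82.8 RPKM and metastases 118 to 227 RPKM. PyMT FVB gave 2.01 ± 2.42 (SD, n = 12), or 1.52 without mouse9716, whose metastasis held 955.9 RPKM against 4.68 RPKM in its tumour. Differences in 4T1 (0.03 ± 0.59, SD, n = 6) and PyMT CAST (0.03 ± 1.49, SD, n = 7) were near 0 and changed sign when single animals were left out. M6 (0.39 ± 1.28, SD, n = 6) changed sign without the animal at 76.9 RPKM in the tumour and 424 RPKM in the metastasis. In PyMT CAST the mean RPKM ran the other way, 46.0 in tumours and 41.5 in metastases. Without mouse9716 and Met1 animal 1, the mean over 10 models was 0.76 for Slpi, 1.08 for Wfdc2 and -0.49 for Wfdc12.

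No tumour of these 10 models held as much Wfdc2 as the lowest healthy lung (399.7 RPKM), so the lung part of each metastasis was estimated from 20 lung genes and subtracted. The rest was divided by the share not assigned to lung. This step lowers values below the healthy lung mean and raises values above it (83.0 RPKM for Slpi, 470 RPKM for Wfdc2). Healthy FVB lung was the reference for all models, including those with hosts of other strains. The estimated share of lung was 11.8% at the median of the 68 metastases and ran from 1.37% to 95%, the upper bound set. With that share taken out, the Wfdc2 difference over 10 models became -1.25, and 22 of 68 metastases were at 0, against 0 as deposited. The sign turned in 8 of the 10 models: 4T1 (-0.15), 6DT1 (-0.36), Mvt1 (-1.19), PyMT FVB (-1.05), PyMT BL6 (-1.56), PyMT BL10 (-3.73), PyMT CAST (-4.44) and PyMT MOLF (-1.14). Met1 kept a positive value (0.87), as did M6 (0.27). Slpi kept a positive sign in each allograft model after the same step: 0.86 in 4T1, 2.60 in 6DT1, 1.78 in Mvt1, 1.97 in Met1 and 0.85 in M6. The difference rose in 4T1, 6DT1 and Mvt1 and fell in Met1 and M6. In the PyMT models Slpi became -0.50 in FVB, where the sign turned, -0.97 in BL6, -0.82 in CAST, -0.09 in MOLF and -2.58 in BL10, where 0 of 6 animals were higher. How much Wfdc2 a metastasis made beyond its lung tissue cannot be told apart by these values, since a lung share estimated slightly too high takes the sample to 0.

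**Figure D4:**
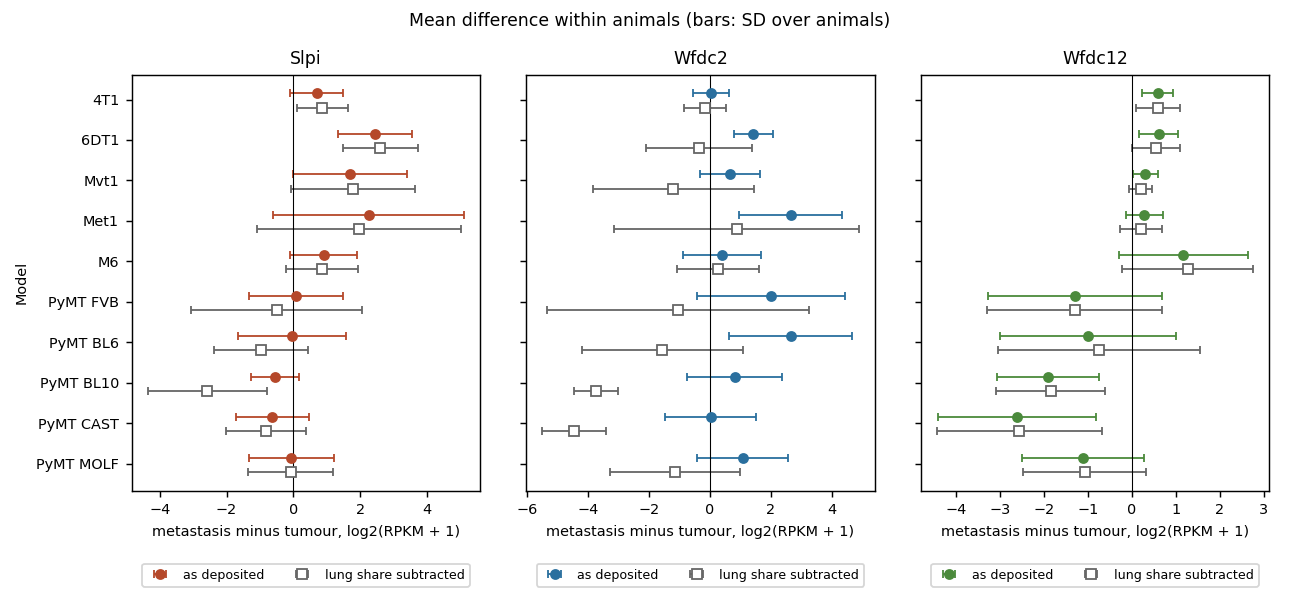
Mean difference within animals between lung metastasis and tumour for each gene and model on the log2(RPKM + 1) scale, as deposited (filled) and after subtraction of the lung share (open); bars are the SD over animals. Slpi keeps its sign in the 5 allograft models, Wfdc2 changes sign in most models, and Wfdc12 is negative in the 5 PyMT models under both.

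Wfdc12 was lower in the metastases of the PyMT models. All 5 had less in the metastases, by -1.58 ± 0.67 (SD, n = 5), and 30 of 38 animals were lower. PyMT CAST had the largest difference, -2.62 ± 1.80 (SD, n = 7), a ratio of tumour to metastasis means of 10.8. Its metastases held 0.139, 0.492, 0.825, 1.12, 1.26, 3.02 and 5.36 RPKM, overlapping only the lower tumours. PyMT BL10 followed at -1.90 ± 1.16 (SD, n = 6), with tumours of 3.92 to 15.5 RPKM and metastases of 0.438 to 4.64 RPKM. The FVB animals mouse9336 and mouse977CH, highest in the tumour, had 1.12 and 0.848 RPKM in the metastasis. Among allograft models M6 was the one with more than traces: tumours held 0.396 to 8.57 RPKM and metastases 0.853, 0.864, 1.75, 15.9, 18.5 and 40.8 RPKM. The difference in M6 was 1.17 ± 1.47 (SD, n = 6), with 5 of 6 animals higher. In the other 4 allograft models mean levels were 0.0136 to 0.118 RPKM in tumours and 0.272 to 0.666 RPKM in metastases, below the healthy lung mean of 0.794 RPKM, and no direction is read from them. Their highest animal mean was 1.69 RPKM and their highest single nodule 3.26 RPKM, both in 6DT1.

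Other routes and organs gave levels that mostly overlapped. Tail vein lung metastases held 254 and 310.5 RPKM of Slpi in 6DT1, 43.6 to 469 RPKM in Mvt1 and 64.8 to 121 RPKM in 4T1. In all 3 lines these animals overlapped the orthotopic metastases, although 4 of 6 4T1 animals lay below the lowest of them. The Met1 tail vein metastasis had the highest Wfdc2 value of all profiles, 1221 RPKM, with the alveolar sum given above. M6 liver metastases after intracardiac injection held 4.42, 11.6, 12.5, 13.6, 13.8, 25.9 and 39.2 RPKM of Slpi, above the adjacent livers (0.268 to 3.13 RPKM). Wfdc2 was 13.0 to 170.1 RPKM in those metastases and 0.196 to 0.861 RPKM in adjacent liver. M6 intracardiac spleen metastases held 29.0 and 29.2 RPKM of Wfdc2. Slpi was at 0.194 and 0.367 RPKM in the brain metastases, whose luminal markers were also low.

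In M6 liver metastases after orthotopic growth, Wfdc12 ran from none to the highest group mean of the series. The 3 animals had no read, 12.0 RPKM (312 reads) and 46.6 RPKM (966 reads). In the same order they held 3.69, 68.2 and 76.5 RPKM of Slpi, so both genes had the same order. The hepatocyte sum was 9297, 2520 and 5304 RPKM in these animals, and its part in these levels was not tested. After intracardiac injection the M6 liver metastases held only 0.250 to 1.26 RPKM of Wfdc12.

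Nodules from the same lung spanned smaller ranges than animals of a group did. In 37 animals with more than 1 sequenced nodule (79 nodules), the median ratio of highest to lowest nodule on RPKM + 1 was 1.55 for Slpi, 1.49 for Wfdc2 and 1.44 for Wfdc12. The median log2 range within an animal was 0.63, 0.58 and 0.53 for these genes, against 1.87, 2.08 and 1.86 between animals of the same groups. An animal gave fewer nodules than a group gave animals, and a range over fewer values is smaller by construction. Wfdc12 had the most unequal nodules: PyMT FVB mouse9674 held 0.217 and 27.3 RPKM, and PyMT BL6 mouse9792 held 1.36 and 43.2 RPKM. Slpi in mouse9674 was 5.44 and 31.5 RPKM.

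Cultured cells of 7 lines showed which differences were present without host tissue. Cultured 4T07 held 405, 412, 819 and 996 RPKM of Slpi and cultured 67NR 0.966, 1.06, 1.44 and 1.47 RPKM, a ratio of means of 533. Cultured 4T1 lay between them at 9.21, 10.2, 11.3 and 29.8 RPKM. The order of the sister lines was the same as in tumours, while 4T1 lay further below 4T07. The lower and the higher pair of 4T07 values came from libraries with different codes in their column names (AS and sample1011), so code and isolation cannot be told apart there. Slpi was apart from its neighbour in the order of lines in 4 of 6 steps, from 4T07 down through M6 and 6DT1, and again between 4T1 and 67NR. RNA of cultured cells was precipitated and washed without the column step used for tissue, per the labels' protocols.

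Slpi differed between tumours and culture in opposite directions by line. 4T1 tumours exceeded 4T1 cells 7.15-fold without overlap, a difference of 2.89 on the log2(RPKM + 1) scale. M6 went the other way: cells held 157, 222 and 236 RPKM and tumours 11.6 to 67.2 RPKM, 4.80 times more in culture and again without overlap. The other 5 lines overlapped. All M6 cultures carry code sample1011 and all M6 tumours code KS, so code and tissue cannot be told apart in M6. Cultures under sample1011 also held more Slpi than those under KS in Met1 (32.5 against 8.96 and 14.2 RPKM) and Mvt1 (35.9 against 26.7 and 26.8 RPKM). In 6DT1 the values were 55.4 RPKM against 51.1 and 52.8 RPKM. Over the 7 lines the mean was 0.17 ± 1.71 (SD, n = 7), with 4 lines higher and 3 lower, and it was -0.29 without 4T1, -0.03 without 67NR and 0.07 without Met1 animal 1. In Met1 itself the difference was -0.82, or -1.50 without that animal.

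On the log2(RPKM + 1) scale Wfdc2 was lower in tumours than in culture in all 7 lines, by -0.73 ± 0.85 (SD, n = 7), but the ranges were apart only in Met1. In Mvt1 the mean RPKM ran the other way, 123 in tumours and 117 in culture, and 67NR had almost no reads on either side. Met1 cells held 87.8, 128 and 161 RPKM and Met1 tumours 5.51 to 76.3 RPKM, 4.26 times more in culture. Cultured 4T1 held 261, 282, 519 and 535 RPKM, with the lower pair under code KS and the higher pair under code AS, and the 4T1 tumours (294 to 396 RPKM) lay between. Cultured 67NR had no Wfdc2 read in the AS libraries, and 12 and 16 reads in the sample1011 libraries. For the libraries without a read, a count of 0 allows up to 3 reads, covering counting error only. Wfdc12 was below 1 RPKM on average in every cultured line, the highest being 4T07 at 0.385 ± 0.501 RPKM (SD, n = 4). M6 tumours had 27.3 times the Wfdc12 of M6 cells, 0.0773, 0.103 and 0.137 RPKM, without overlap. These cell values rest on 2, 3 and 4 reads, so the size of the ratio is imprecise. Library code and tissue cannot be told apart in this M6 ratio either.

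**Figure D5:**
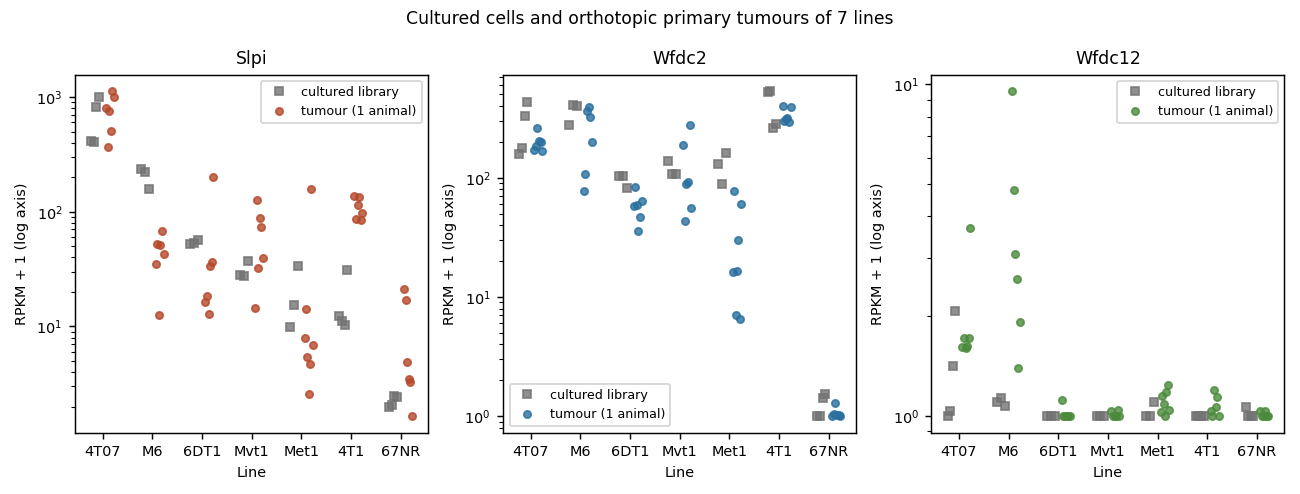
Cultured libraries (squares) and orthotopic tumours (circles) of 7 lines for the 3 genes, RPKM + 1 on a log axis, 1 point per library or animal. Slpi is higher in 4T1 tumours than in 4T1 cells and lower in M6 tumours than in M6 cells, and Wfdc12 is above traces only in M6 and 4T07.

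Of 23 WAP family genes listed, 19 were in the table, 16 of them beside the 3 genes described. Of these 16, 8 reached 1 RPKM in at least 1 group mean, 6 reached 5 RPKM and 8 stayed below 1 RPKM in every group. Wap itself was highest in PyMT MOLF lung metastases (mean 691 ± 958 RPKM, SD, n = 8) and MOLF tumours (581 ± 641, SD, n = 8). Wfdc3 was highest in M6 orthotopic liver metastases at 149, 349.9 and 393 RPKM (n = 3) and had means of 96.1 RPKM in MOLF metastases and 74.8 RPKM in Myc tumours. Wfdc1 was highest in adjacent lung (26.4 ± 11.1 RPKM, SD, n = 5) and healthy lung (21.3 ± 5.29, SD, n = 4), and no primary tumour group exceeded 1.16 RPKM. Wfdc5 reached 9.91 ± 6.23 RPKM in CAST tumours (SD, n = 7). Wfdc10 was above 1 RPKM only in the Met1 tail vein metastasis (10.4 RPKM), Wfdc13 reached 5.26 RPKM and Wfdc6a 1.75 RPKM in M6 orthotopic liver metastases, and Wfdc15b reached 2.45 RPKM in CAST tumours. Wfdc6b, Wfdc8, Wfdc9, Wfdc11, Wfdc15a, Wfdc16, Wfikkn1 and Wfikkn2 stayed below 1 RPKM in every group mean. Wfdc17, Wfdc18, Wfdc21 and Eppin were not analysed here.

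Genome neighbours varied in how far they followed the 3 genes. By RefSeq order, 32 protein-coding genes run from Wfdc5 to Wfdc3, of which 29 were in the table and 15 reached 1 RPKM in at least 1 group mean. Between Wfdc12 and Slpi lie 8 genes, including 6 seminal vesicle secretory genes (Svs2, Svs3a, Svs3b, Svs4, Svs5, Svs6) whose group means were all below 1 RPKM. Between Slpi and Wfdc2 lie 7 genes. Among these, Sdc4, Sys1 and Pigt were at 1 RPKM or more in all 61 groups, and their Pearson r with Slpi over groups was 0.36, 0.51 and 0.42. With Wfdc2, Sys1 had r of 0.58 and Dbndd2, also between the 2 genes, 0.52 (0.69 without the 9 profiles that stand apart). Wfdc3, at the far end, had r of 0.67 with Wfdc12, against 0.63 between Slpi and Wfdc2. Wfdc5 and Wfdc15b, near Wfdc12, had 0.58 and 0.51 with it.

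Likeness was measured by Pearson r of log2(group mean RPKM + 1), as a description over groups that share models, hosts and libraries. Over all 61 groups Slpi and Wfdc2 had r of 0.63 (Spearman rho 0.52), which put Wfdc2 at place 21 of 13610 genes for likeness to Slpi. Over the 22 primary tumour groups alone r was 0.16 (rho 0.06). Slpi and Wfdc12 had r of 0.31 over all groups and 0.42 over primary tumours. Wfdc2 and Wfdc12 had 0.08 and -0.27. Without the 9 profiles that stand apart, which leaves 57 groups, r between Slpi and Wfdc2 was 0.56, Wfdc2 was at place 103, and r between Wfdc2 and Wfdc12 was 0.05.

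Genes nearest to Slpi over all groups were Ppl (r 0.73), which encodes the cell envelope protein periplakin, Mapkapk3 (0.71), Agtrap (0.71), Tpt1 (0.69) and Crip1 (0.68). Over primary tumours they were Bcl3 (0.79), a nuclear regulator of NF-kB, Hmgn2 (0.77), Mxd1 (0.76), a partner of MAX, Ctgf (0.75) and Fbxl19 (0.75). For Wfdc2 they were Prickle3 (0.81), Ptgfrn (0.80), Kctd11 (0.79), Crtap (0.79) and Gprc5a (0.78) over all groups, and Zdhhc12 (0.87), P4ha2 (0.82), the secreted ligand gene Wnt7b (0.82), Plekha2 (0.81) and 5730559C18Rik (0.81) over primary tumours. Wfdc12 was nearest to the skin protease gene Asprv1 (0.82), the Mir429 entry (0.80), Vtcn1 (0.79), Slco1a5 (0.79) and Atp6v1b1 (0.78) over all groups. Over primary tumours its nearest genes were the tight junction gene Tjp3 (0.93), Rgn (0.93), Prom1 (0.92), the Mir429 entry (0.92) and Bex1 (0.92). Without the 9 profiles, 2 of the 5 genes nearest to Slpi, 0 of those nearest to Wfdc2 and 4 of those nearest to Wfdc12 over all groups were again among the nearest 5, and over primary tumours 4 of 5 for each gene.

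Genes that work with or beside these inhibitors were tested over the 10 models, with the model as the unit. Of 11467 genes tested, limma called 1345 higher (11.7%) and 2230 lower (19.4%) in lung metastases at an adjusted p under 0.05. The median gene shifted by -0.04 on the log2 scale. After median ratio rescaling the split was 1877 higher and 1433 lower, so calls of small size depend on the scaling. Of 9 serine protease genes of neutrophils and mast cells in the table, 1 passed the filter on low values and was tested, and 0 were called by limma (0 at an unadjusted p under 0.05). That gene, Prtn3 (proteinase 3, which is not known as a target of SLPI), had a difference of 0.30 ± 0.14 (SE, limma adjusted p = 0.129). Its highest mean was 35.6 RPKM in Myc tumours, while Elane, the elastase gene, reached 41.7 RPKM in adjacent spleen and no more than 0.381 RPKM in any primary tumour group. Mast cell proteases peaked in TSAE1 tumours, with Mcpt1 at 59.0 RPKM.

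Of 3 partners of the SLPI protein, 2 were called higher and 0 lower, and the median difference was 0.26 against -0.04 for all genes. Anxa2, a membrane protein that binds SLPI, rose by 0.26 ± 0.08 (SE, limma adjusted p = 0.0287) and Plscr1, a scramblase that binds it too, by 0.29 ± 0.10 (SE, limma adjusted p = 0.0348). With a model left out at a time, 0 of the 3 were called without 4T1 or without Met1, 1 without 6DT1, Mvt1, M6, PyMT BL6, PyMT BL10 or PyMT CAST, and 2 without PyMT FVB or PyMT MOLF. With no filter on low values 1 was called. Grn, the granulin precursor that SLPI shields from cleavage, had -0.02 ± 0.09 (SE, limma adjusted p = 0.905).

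Of 13 other protease inhibitors, 10 were tested and 6 were called higher and 0 lower, with a median of 0.49. Serpinb6b rose by 1.66 ± 0.12 (SE, limma adjusted p = 1.94e-06), Serpina3n by 1.13 ± 0.22 (SE), Serpinb9, a granzyme B inhibitor, by 0.71 ± 0.12 (SE) and the cathepsin inhibitor gene Cstb by 0.37 ± 0.08 (SE). The highest group mean of Serpinb6b was 83.1 RPKM, in PyMT FVB adjacent lung. Among WAP genes outside the 3, 3 were tested and Wfdc1 was called higher by 1.09 ± 0.12 (SE, limma adjusted p = 3.5e-05), while Wap had 0.03 ± 0.24 (SE) and Wfdc3 -0.01 ± 0.21 (SE). Wfdc1 had at most 1.16 RPKM in any primary tumour group and 21.3 RPKM in healthy lung. A gene can pass the filter on low values through its metastases alone, and the part of lung tissue in this call was not tested.

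Epithelial inflammation genes were tested in 12 of 14 cases, with 5 called higher, 0 lower and a median of 0.22. The count was 2 without Mvt1 and 2 without M6. Icam1, an adhesion molecule, rose by 2.06 ± 0.16 (SE, limma adjusted p = 2.36e-06), the cytokine gene Il1b by 0.75 ± 0.13 (SE), Lcn2, an iron-siderophore binding protein, by 0.91 ± 0.27 (SE) and the NF-kB inhibitor gene Nfkbia by 0.28 ± 0.09 (SE). Icam1 had its highest group mean in PyMT FVB adjacent lung, 161 RPKM, against at most 12.0 RPKM in any primary tumour group. Il1b, Lcn2 and Nfkbia had theirs outside healthy and adjacent lung. The part of lung tissue in these calls was not tested. Of 12 luminal epithelial genes 0 were called higher (1 at an unadjusted p under 0.05) and 1 lower, Cldn4, a claudin, by -0.66 ± 0.17 (SE, limma adjusted p = 0.0122).

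Markers of lung and blood cells moved with the metastases. All 8 alveolar type 2 markers were called higher (median 5.41), as were 4 of 4 airway secretory genes tested (median 2.31) and 4 of 5 alveolar type 1 genes. Lung genes near 0 in tumours can pass the filter through the metastases alone, so calls of higher were likely beforehand for these lists. The secretoglobin Scgb1a1 rose by 7.07 ± 0.26 (SE, limma adjusted p = 2.18e-09). All 10 neutrophil markers were called higher (median 1.65). Retnlg had the smallest adjusted p, at 3.23 ± 0.18 (SE, limma adjusted p = 1.61e-07), and S100a9 the largest difference, 3.33 ± 0.29 (SE). Of 7 macrophage genes 1 was called higher, 1 of 1 alveolar macrophage gene was called higher, and of 6 milk genes 0 were called by limma (0 at an unadjusted p under 0.05). Fibroblast genes fell in 6 of 7 cases (median -1.9998), with 1 called higher. In metastasis groups of the paired models the summed neutrophil level ran from 62.2 to 11500 RPKM, against 8.01 to 4455 RPKM in their tumours. Their part in the differences of Slpi, Wfdc2 and Wfdc12 was not tested.

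Between tumours and cultured cells of the 7 lines, limma called 1327 of 10735 genes higher in tumours (12.4%) and 1025 lower (9.55%). Without 4T1 the total of calls was 1479 instead of 2352, and without the pairing by line it was 890. Protease inhibitors were called higher in 7 of 10 cases and lower in 0 (median 0.87), led by the complement inhibitor gene Serping1 at 4.41 ± 0.18 (SE, limma adjusted p = 7.72e-07) and Serpina3n at 2.79 ± 0.29 (SE). Without the pairing by line, 3 of the 10 were called. Of 11 inflammation genes, 3 were called higher (Icam1, Il1b and Saa3) and 1 lower, the chemokine gene Cxcl1 at -2.05 ± 0.37 (SE, limma adjusted p = 0.00473). Of the SLPI partners, Plscr1 was called lower at -0.79 ± 0.18 (SE, limma adjusted p = 0.0147), a call lost without the pairing by line. Of 10 luminal genes 0 were called by limma (0 at an unadjusted p under 0.05), while 7 of 7 macrophage genes, 7 of 7 fibroblast genes and 3 of 4 neutrophil genes were higher in tumours, and their part in the tumour levels of the 3 genes was not tested.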

How the data were processed

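RNA of 335 libraries was sequenced on a HiSeq2500, per the labels' protocols. The submitters' processing notes name mm9, TopHat and DESeq2, with no version and no role for DESeq2. The authors deposited RPKM values, read here for every library (0 other columns of per-sample values were left unused). Reads per library were recovered from the steps of low values, where all 335 values of each of the 3 genes were within 0.001 reads of a whole number. This recovery and the test across genes were tested on simulated data.

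Groups, animals and pairs followed the labels. Where they conflicted (metastasis titles on a few tumours, a line name in the Mvt1 tail vein titles, a strain entry, digits of mouse numbers), the source or cell line entry was followed, or the title where only that named the model. The 4 TSAE1 tumours carry a single mouse number in their column names and were kept as separate tumours by title. The healthy liver and Neu groups were kept despite FVBxPyMT_F1 and PyMT-Neu in library names. Nothing says that cultured libraries came from separate cultures.

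Values of the same animal were averaged and analysed as log2(RPKM + 1). limma 3.58.1 in R 4.3.3, with trend and robust moderation and Benjamini-Hochberg adjustment, was run on 1 mean difference per model (10 models) and on line means with line as a block (7 lines). A gene was tested if it had 1 RPKM or more in at least as many group means as there were models or lines. Either side of a comparison alone could meet this filter. Adjusted p below 0.05 counted as a call. Pairing came from the animal named in the labels: deviations of tumour and metastasis correlated by over 0.1 in 44 of 68 pairs. The lung share came from 20 lung genes relative to healthy FVB lung, also for hosts of other strains. After its subtraction, values were divided by the remaining share. Genes were named by rule: the 3 members, all WAP family genes, the 5 genes nearest to each member by Pearson r among 13611 genes at 5 RPKM or more in at least 1 group, and up to 4 called genes per list. A part of the rule on genes near Slpi by position was replaced by RefSeq gene order, because no positions of the authors' build were used here. The members and the lists were chosen with earlier results of these data known. Alternatives were another pseudocount, rescaling, the first library of each animal, subtraction of the lung share, no filter, no moderation, no pairing, Spearman rank correlation and leaving out animals, models, lines or the 9 profiles whose marker genes stand apart, the last chosen after seeing the data.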

Additional observations from a re-analysis of the deposited data

Results flagged for a closer look

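Single samples that lay apart from their group were looked for in 115 combinations of gene and group with 4 to 10 samples, and 13 were found. Chance alone marks about 1 in 20 groups where values are spread. That rate does not hold where all other samples are at 0, since any read then marks a sample. For Slpi they were a cultured 4T1 library at 29.8 RPKM (others 9.21 to 11.3), the tumour of Met1 animal 1 at 158 RPKM (others 1.59 to 13.1) and a lung metastasis of a PyMT CAST animal at 8.45 RPKM (others 36.5 to 76.5). For Wfdc2 they were the tumour of 67NR animal 2 at 0.297 RPKM (others 0 to 0.0540) and the intracardiac liver metastasis of M6 animal KH01 at 13.0 RPKM (others 67.2 to 170.1). The KH01 sample had 407 RPKM of summed luminal markers and 22833 RPKM of hepatocyte markers.

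For Wfdc12, the tumour of 4T07 animal 9 held 2.69 RPKM (others 0.610 to 0.725). In 7 further groups a single sample had reads, only 2 of them in cultured 67NR library 1, while all others were at 0. Such a sample is marked whatever its count. These were cultured 67NR library 1 (0.0673 RPKM), the tumours of 6DT1 animal 0 (0.120), D2A1 PT2 (0.0369) and E0771 PT1-5 (0.0540), 1 healthy FVB liver (0.0186), 1 adjacent liver of M6 intracardiac hosts (0.0300) and the resected tumour of Met1 animal 13 (0.173).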

How the results depend on the processing

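Of 441 alternative values of differences, 35 had the other sign, 18 of them on leaving out an animal, model or line; 27 of the 35 lay within 1 SD of the value reported. Subtracting the lung share turned the sign of the Wfdc2 difference over 10 models (-1.25) and in 8 of them: 4T1 (-0.15), 6DT1 (-0.36), Mvt1 (-1.19), PyMT FVB (-1.05), PyMT BL6 (-1.56), PyMT BL10 (-3.73), PyMT CAST (-4.44) and PyMT MOLF (-1.14), and that of Slpi in PyMT FVB (-0.50); the subtraction itself takes 22 of 68 metastases to 0. A pseudocount of 0.1 gave 0.93 instead of 0.32 for Wfdc12 in tumours minus culture, by construction for values near 0. By Spearman rank correlation, the genes shared with the 5 nearest were 2 for Slpi, 0 for Wfdc2 and 0 for Wfdc12 over all groups, and 2, 2 and 0 over primary tumours. Without the 9 profiles whose markers stand apart (chosen after seeing the data) 2, 0 and 4 were shared over all groups; the cause of neither was tested.

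Leaving out a model at a time, the mean over 10 models ran from 0.48 to 0.82 for Slpi, 1.01 to 1.30 for Wfdc2 and -0.68 to -0.26 for Wfdc12, and the calls from 2822 to 3480. Leaving out a line at a time, tumours minus culture ran from -0.29 (without 4T1) to 0.59 for Slpi, -0.82 to -0.42 for Wfdc2 and 0.13 to 0.38 for Wfdc12, and the calls from 1479 (without 4T1) to 2479.

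Without the pairing of tissues by animal (no replicate block), the means over 10 models were 0.68 for Slpi, 1.13 for Wfdc2 and -0.45 for Wfdc12. Without the block by line, calls between tumours and culture were 890 instead of 2352, while the means of the 3 genes are the same by construction. Calls within single models, which enter no statement here, were 35 with the block and 59 without in Met1, and 287 and 545 in PyMT BL10; with no filter on low values they were 8 in Met1, 315 instead of 141 in PyMT FVB, 2 instead of 73 in PyMT BL6 and 11 in PyMT BL10. Without the block by line, protease inhibitors called fell from 7 to 3 and SLPI partners from 1 to 0. Depth limits Wfdc12, where values under 1 RPKM rest on few reads, and groups of 1 to 3 animals give little precision.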
